A study of Mus musculus with 10 samples.

Results

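The T cell receptor complex and its first signalling steps are described here through 9 genes, chosen by symbol from a fixed list of names and all found among the 20813 genes of the table. They are Cd3d, Cd3e, Cd3g and Cd247 (the invariant receptor chains), Lck and Zap70 (the kinases), Lat and Lcp2 (the adaptors) and Cd5 (an inhibitory surface receptor). All 9 passed the filter on low values. The RNA came from 10 leukemic spleens of C57BL/6 mice that had been given transplants of T-cell acute lymphoblastic leukemia (T-ALL), a malignancy of immature T cells. Every leukemia carried a conditional Sirt1 allele and every recipient had been irradiated at a sub-lethal dose. The 5 mice labelled Sirt1-deleted received tamoxifen (3 mg per mouse, intraperitoneal, in corn oil) and the 5 controls received corn oil only, so genotype and drug differ together. The Cre driver, the time after treatment, the number of doses and the age of the mice were not given in the sources used here, nor whether the spleens of a group came from separate leukemias. The p-values below therefore measure the spread between these samples. The suspension was depleted of red cells but not sorted, so it also held cells of the host.

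T cells recognise antigen through a receptor whose variable chains have almost no intracellular part. Signals pass through the CD3 chains and the zeta chain, which carry tyrosine motifs that LCK phosphorylates. ZAP70 binds the phosphorylated motifs and then phosphorylates LAT and SLP-76 (the product of Lcp2), on which the enzymes of the calcium and RAS routes assemble. CD5 dampens this signal, and its level on developing T cells is known to follow the strength of receptor signalling.

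Sirt1 was examined as a check of the labels. Its normalized counts were 1925, 1715, 1817, 1812 and 2097 in labelled Sirt1-deleted replicates 7, 8, 10, 11 and 12, and 1735, 1803, 1796, 1909 and 1810 in control replicates 2 to 6. The ranges overlapped (log2 difference 0.05, SE 0.06, limma adjusted p = 0.568), so the gene-level value did not separate the groups and they are called by their labels. Totals ran from 33.7 to 34.5 M normalized counts per sample (M, mega). The summed level of 10 T lineage markers was 205141 to 230792 with the deletion label and 218302 to 226314 in controls, and the ranges overlapped (exact two-sided permutation p = 0.571). Of these markers 1 was called higher (Thy1) and 4 lower (Cd27, Cd28, Tcf7 and Ets1). The markers with the highest means, Thy1 and Tcf7, moved in opposite directions. Thy1 had means of 79592 with the deletion label and 53217 in controls, and Tcf7 had 58426 and 77942. The sum therefore does not show that T cell content was equal. Of 4 tested natural killer cell markers 0 were called by limma (0 at an unadjusted p under 0.05 and 0 by the exact rank-sum test), with a summed level of 12612 to 17538 against 10237 to 15464 in controls. Most of that sum was Gzma, a granzyme gene that T cells also use, with means of 14982 and 13290, while the receptor gene Klrb1c had means of 4.02 and 6.13 (first value labelled Sirt1-deleted). Neutrophil markers differed: 11 of 12 were called higher, with a summed level of 28542 to 97589 against 8984 to 12420. In macrophage and monocyte markers 8 of 12 were called higher, with sums of 6488 to 11581 against 3082 to 3532. The part of these host cells in the differences below was not tested. The neutrophil markers made up 0.157% of all normalized counts in labelled Sirt1-deleted spleens against 0.0291% in control spleens. Erythroid RNA remained despite the red cell depletion and varied widely between spleens. The 8 erythroid markers summed to 28365 to 137715 against 28340 to 111758 in controls, or 0.238% against 0.229% of all counts. Of these 8, 0 were called by limma.

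The 9 genes did not move as a block. Cd5 showed the largest difference and fell by 34.5% of its control mean, and Lcp2 and Cd247 fell less. Lat rose by 27.3% and Cd3d by 12.3%. Cd3e, Cd3g, Lck and Zap70 did not pass the threshold. In all 5 of the 9 genes were called at a limma adjusted p under 0.05, of which 2 were higher and 3 lower. Over the 15276 genes tested, 36.1% were called, 16.8% as higher and 19.4% as lower, so a call by itself was common in this comparison. The median log2 difference was -0.02 over the 9 genes and -0.00014 over all tested genes. In bulk RNA, fewer cells of a type and less RNA per cell cannot be told apart.

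**Figure D1:**
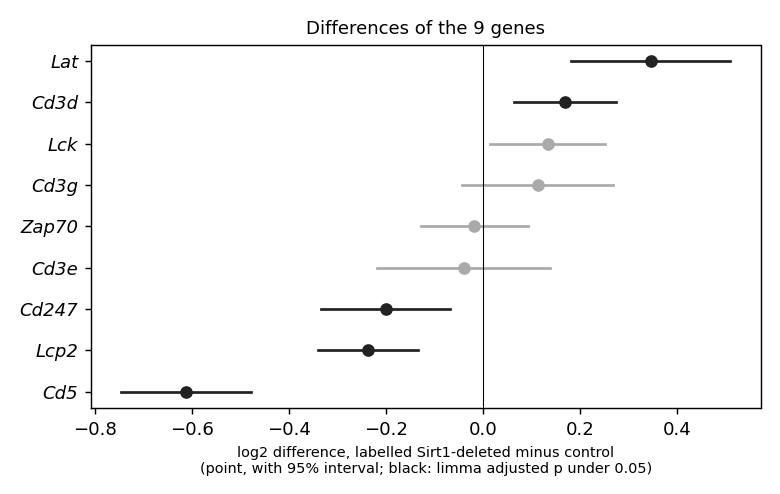
Log2 difference of each of the 9 genes, labelled Sirt1-deleted minus control, on the log2(normalized count + 1) scale, with 95% intervals from limma over 5 samples per group. Points in black passed an adjusted p of 0.05: Lat and Cd3d lie above 0 and Cd247, Lcp2 and Cd5 below it.

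Positions are given in GENCODE M21 on GRCm38. The processing notes name mm10, which is the same assembly. Cd3g (chr9:44969572-44980431, minus strand), Cd3d (chr9:44981786-44987339, plus strand) and Cd3e (chr9:44998740-45009627, minus strand) lie together within 40056 bases. Cd3g and Cd3d start 1354 bases apart and are read in opposite directions. Promoters of all 9 genes were found in the RefSeq set (GRCm38.p6), each running from 250 bases before to 50 bases after an annotated start. Lck has 2 entries there and Zap70 3, which makes 12 promoters for the 9 genes. Below are 4 of them: Cd3d and Cd3e, neighbours of which only Cd3d passed the threshold, and Lat and Cd5, the genes with the largest rise and the largest fall. Capitals mark CANNTG, the E-box, a motif that E proteins of the T lineage are known to bind. It reads the same on both strands.
Cd3d (chr9:44981536-44981835, plus strand): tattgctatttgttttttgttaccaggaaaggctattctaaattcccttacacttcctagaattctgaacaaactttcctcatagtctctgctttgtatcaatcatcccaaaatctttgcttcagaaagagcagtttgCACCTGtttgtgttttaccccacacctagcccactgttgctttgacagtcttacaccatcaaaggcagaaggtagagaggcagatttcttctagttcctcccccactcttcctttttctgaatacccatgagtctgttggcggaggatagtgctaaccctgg
Cd3e (chr9:45009562-45009861, minus strand): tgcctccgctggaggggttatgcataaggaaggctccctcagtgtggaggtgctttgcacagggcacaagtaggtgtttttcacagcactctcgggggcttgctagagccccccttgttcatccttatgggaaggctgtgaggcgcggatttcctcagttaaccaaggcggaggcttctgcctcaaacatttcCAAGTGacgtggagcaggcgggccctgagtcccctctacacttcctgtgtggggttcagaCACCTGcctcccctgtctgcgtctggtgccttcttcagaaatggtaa
Lat (chr7:126369519-126369818, minus strand): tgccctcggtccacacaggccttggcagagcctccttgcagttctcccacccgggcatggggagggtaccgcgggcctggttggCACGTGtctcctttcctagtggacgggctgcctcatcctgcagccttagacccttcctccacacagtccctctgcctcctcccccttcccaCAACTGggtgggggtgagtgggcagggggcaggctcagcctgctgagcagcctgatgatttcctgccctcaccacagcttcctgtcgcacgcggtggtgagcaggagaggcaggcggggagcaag
Cd5 (chr19:10738925-10739224, minus strand): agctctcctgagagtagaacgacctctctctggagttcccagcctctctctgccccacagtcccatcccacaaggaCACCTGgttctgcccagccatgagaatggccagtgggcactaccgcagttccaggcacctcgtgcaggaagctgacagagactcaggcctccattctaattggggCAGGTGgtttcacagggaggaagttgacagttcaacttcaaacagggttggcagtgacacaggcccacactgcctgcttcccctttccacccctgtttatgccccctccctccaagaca

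All 12 promoters held at least 1 E-box, against 72.3% of the 32851 promoters in the set. The counts were 1 for Cd3d, 2 each for Cd3e, Lat, Cd5 and Cd247, and 4 for Cd3g, which had the most. Lcp2 and each of the 2 Lck promoters had 1, and the 3 Zap70 promoters had 3, 1 and 2. Whether the number goes with the direction of change was not tested. On either strand, the ETS core GGAA was present in 11 of the 12 promoters (96.0% of the set), the RUNX motif TGTGGT in 3 (16.8%) and the GATA motif AGATAA in 2 (11.2%). Motifs were counted separately and may share bases. A match of letters describes the sequence and does not show that a factor binds there.

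Among the receptor chains, Cd3d rose, Cd247 fell and neither Cd3e nor Cd3g passed. Cd3d encodes CD3 delta, which pairs with CD3 epsilon in the complex. Its normalized counts were 14393, 14064, 14361, 14706 and 14884 in labelled Sirt1-deleted replicates 7, 8, 10, 11 and 12, and 11553, 13117, 12947, 13076 and 13783 in control replicates 2 to 6. Every labelled Sirt1-deleted sample was above every control, by a narrow margin, and control 2 was the lowest of the 10. Its log2 difference was 0.17 (SE 0.05, limma adjusted p = 0.0170, n = 5 per group). Groups without overlap occurred in 24% of all tested genes, 11.1% as higher and 12.9% as lower.

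Cd3e encodes CD3 epsilon, the chain shared by both CD3 pairs. Its counts were 10957, 12099, 14317, 12735 and 9883 in labelled Sirt1-deleted replicates 7, 8, 10, 11 and 12, and 11855, 12583, 11621, 12378 and 12755 in controls 2 to 6. The labelled Sirt1-deleted samples held both the highest value, in replicate 10, and the lowest, in replicate 12, so the means were close while the spread differed (11998 ± 1695 against 12238 ± 483, SD, n = 5 each). The log2 difference was -0.04 (SE 0.08, 95% interval -0.22 to 0.14, limma adjusted p = 0.743). Its sign turned under upper-quartile rescaling (0.020), under rescaling to the T lineage markers (0.0015) and without labelled Sirt1-deleted replicate 12 (0.028). An annotated antisense gene shares 135 exonic bases with Cd3e, and although the labels call the libraries strand-specific, whether strand was used in counting is not given in the sources used here.

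Cd3g, which encodes CD3 gamma, had counts of 15589, 15893, 17952, 18019 and 14024 in labelled Sirt1-deleted replicates 7, 8, 10, 11 and 12, and 13716, 15347, 14452, 15341 and 16294 in controls 2 to 6. Replicates 10 and 11 lay above every control and the other 3 lay within the control range. The log2 difference was 0.11 (SE 0.07, limma adjusted p = 0.238). As in Cd3e, replicate 12 was the lowest and replicates 10 and 11 the highest of their group.

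Cd247 (chr1:165788681-165877277, plus strand) encodes the zeta chain, which carries more of the tyrosine motifs than any CD3 chain and also serves receptors of natural killer cells. Its counts were 5512, 6198, 5190, 5543 and 4857 in labelled Sirt1-deleted replicates 7, 8, 10, 11 and 12, and 5950, 6489, 6076, 6195 and 6588 in controls 2 to 6. Replicate 8 lay among the controls, and the other 4 of its group lay below all of them. The log2 difference was -0.20 (SE 0.06, limma adjusted p = 0.0237). The call did not hold without control replicate 3 (-0.19, limma adjusted p = 0.0548), without control replicate 6 (-0.18, limma adjusted p = 0.0571) or without labelled Sirt1-deleted replicates 10 and 11 together (-0.19, limma adjusted p = 0.0519). Under upper-quartile rescaling the limma adjusted p was 0.0711. The gene Pou2f1 on the opposite strand shares 3007 exonic bases with Cd247 and had a log2 difference of -0.09 (limma adjusted p = 0.289).

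**Figure D2:**
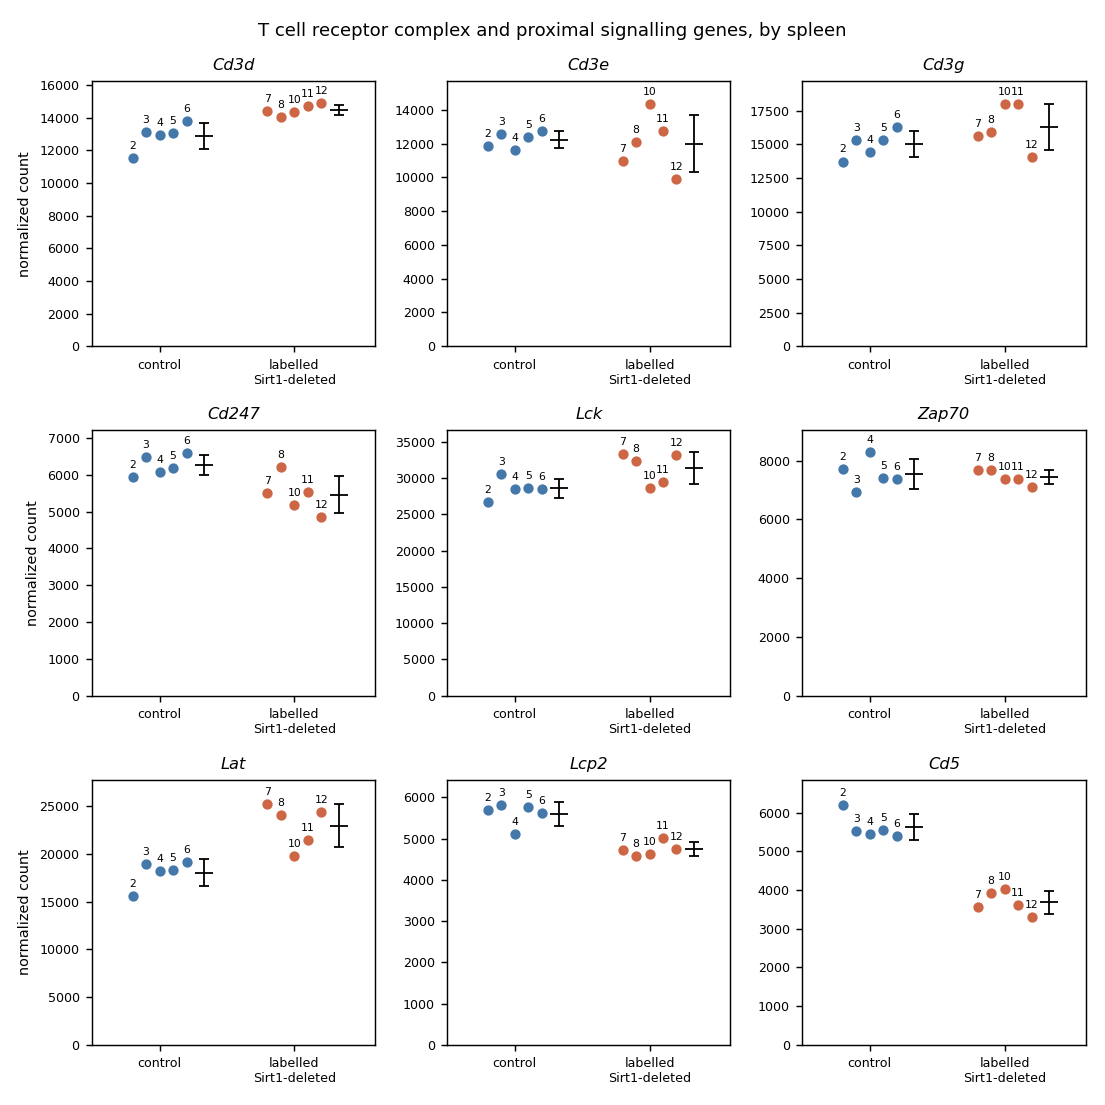
Normalized counts of the 9 genes in each of 10 spleens, on linear axes from 0, with replicate numbers beside the points. Black marks give the mean and SD of 5 samples. Cd5 and Lcp2 lie lower and Lat and Cd3d higher in all 5 labelled Sirt1-deleted samples than in any control, and replicates 10 and 11 stand apart within their group for Lat and Lck.

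The kinases did not pass the threshold. Lck (chr4:129548344-129573641, minus strand), the SRC-family kinase bound to the coreceptors, had counts of 33296, 32303, 28695, 29481 and 33192 in labelled Sirt1-deleted replicates 7, 8, 10, 11 and 12, and 26751, 30529, 28508, 28645 and 28502 in controls 2 to 6. Replicates 7, 8 and 12 lay above every control, whereas 10 and 11 lay within the control range. The log2 difference was 0.13 (SE 0.05, limma adjusted p = 0.0743). It passed as higher without labelled Sirt1-deleted replicate 10 (0.17, limma adjusted p = 0.0257), without 10 and 11 together (0.21, limma adjusted p = 0.00514), after upper-quartile rescaling (0.19, limma adjusted p = 0.0320) and after rescaling to T lineage markers (0.17, limma adjusted p = 0.0263). With Lck among them, 3 of the 9 genes were called higher and 2 lower in each of the last 3 fits. The share of all tested genes called was 45.3% without replicates 10 and 11, 35.6% after upper-quartile rescaling and 28.3% after rescaling to T lineage markers. Replicates 10 and 11 held the lowest Lck values of their group. Leaving them out therefore enlarges the Lck difference by construction and gives it no support.

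Zap70 (chr1:36761798-36782818, plus strand) had counts of 7677, 7678, 7364, 7390 and 7094 in labelled Sirt1-deleted replicates 7, 8, 10, 11 and 12, and 7715, 6936, 8299, 7397 and 7370 in controls 2 to 6. All 5 labelled Sirt1-deleted values lay inside the control range. The log2 difference was -0.02 (SE 0.05, 95% interval -0.13 to 0.09, limma adjusted p = 0.813). Its sign turned under upper-quartile rescaling (0.041), quantile normalization (0.040), rescaling to T lineage markers (0.023) and sample weights (0.011), and without control replicate 4 (0.017).

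The adaptors moved in opposite directions. Lat (chr7:126363824-126369570, minus strand) encodes the membrane scaffold that ZAP70 phosphorylates. Its counts were 25216, 24136, 19792, 21426 and 24368 in labelled Sirt1-deleted replicates 7, 8, 10, 11 and 12, and 15564, 18979, 18257, 18345 and 19144 in controls 2 to 6. No values overlapped, and replicate 10 lay closest to the controls. The log2 difference was 0.35 (SE 0.08, limma adjusted p = 0.00472). Without control replicate 2, the lowest, it was 0.29 (limma adjusted p = 0.0124).

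Lcp2 (chr11:34046920-34092295, plus strand) encodes SLP-76, the cytosolic partner of LAT, which is also used by platelets and myeloid cells. Its counts were 4731, 4589, 4638, 5022 and 4758 in labelled Sirt1-deleted replicates 7, 8, 10, 11 and 12, and 5705, 5819, 5102, 5764 and 5618 in controls 2 to 6. The groups did not overlap, although control 4 came close to replicate 11. Lcp2 fell by 0.24 on the log2 scale (SE 0.05, limma adjusted p = 0.00309). Platelet and megakaryocyte markers had 0 of 5 tested genes called by limma (1 at an unadjusted p under 0.05 and 0 by the exact rank-sum test), with summed levels of 174 to 263 against 209 to 337 in controls. The part of platelets and myeloid cells in the Lcp2 difference was not tested.

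Cd5 (chr19:10717116-10739002, minus strand) separated the groups most. Its counts were 3551, 3931, 4030, 3621 and 3292 in labelled Sirt1-deleted replicates 7, 8, 10, 11 and 12, and 6202, 5535, 5442, 5557 and 5389 in controls 2 to 6. The highest labelled Sirt1-deleted value was below the lowest control by a wide gap. Cd5 fell by 0.61 on the log2 scale (SE 0.06, 95% interval -0.75 to -0.48, limma adjusted p = 1.04e-04). Its difference ran from -0.65 to -0.55 under 12 other choices of scaling, filter, test and samples, and from -0.65 to -0.57 when each sample was left out in turn, and it passed in each.

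Ratios of 2 genes in the same spleen do not depend on how the spleen was scaled, and 7 were compared by exact two-sided permutation tests (smallest possible p 0.00794, adjusted over the 7). The ratio of Cd5 to Cd3e was 0.310 ± 0.0246 with the deletion label, from 0.282 in replicate 10 to 0.333 in replicate 12, and 0.461 ± 0.0387 in controls, from 0.423 in control 6 to 0.523 in control 2. The ranges lay well apart, with a log2 difference of -0.57 (SE 0.07, exact permutation p = 0.00794, adjusted p = 0.0278). The ratio of Lat to Lcp2 was 4.85 ± 0.536 against 3.23 ± 0.319 (SD, n = 5 each), with a log2 difference of 0.58 (exact permutation p = 0.00794, adjusted p = 0.0278). No values overlapped, and replicates 10 and 11 were the lowest of their group. Lat alone was already higher, and Lcp2 alone lower, in every labelled Sirt1-deleted sample than in any control. Their ratio therefore had to separate the groups and give the smallest possible p, so its test adds no support to the 2 differences. The ratio of Cd3g to Cd3e was 1.36 ± 0.0770 against 1.23 ± 0.0445 (log2 difference 0.15, exact permutation p = 0.0159, adjusted p = 0.0370). That call was lost without any 1 of control replicates 2 (log2 difference 0.13), 3 (0.15), 4 (0.16) or 5 (0.16), with adjusted permutation p of 0.0556 to 0.0741, and under quantile normalization (0.12, adjusted permutation p = 0.111).

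The other 4 ratios did not pass. The ratio of Cd3d to Cd3e differed by 0.21 on the log2 scale (exact permutation p = 0.0794, adjusted p = 0.111). It was larger without labelled Sirt1-deleted replicate 10 (0.28, with an adjusted permutation p of 0.0139), which had the lowest such ratio of its group. The ratio of Cd247 to Cd3e differed by -0.16 (adjusted permutation p = 0.0972) and passed without labelled Sirt1-deleted replicate 8 (-0.20, with an adjusted permutation p of 0.0417). The ratio of Zap70 to Lck differed by -0.15 (adjusted permutation p = 0.130) and passed without control replicate 3 (-0.21, adjusted permutation p = 0.0370). The ratio of Lck to Cd3e differed by 0.17 (adjusted permutation p = 0.254) and passed without labelled Sirt1-deleted replicate 10 (0.27, with an adjusted permutation p of 0.0444). Replicate 10 had the lowest such ratio of all 10 spleens, and the other 4 of its group ran from 2.31 to 3.36. Replicate 8 had the highest ratio of Cd247 to Cd3e in its group (0.512), and control 3 the lowest control ratio of Zap70 to Lck (0.227). In all 4 ratios the sample left out was the one of its group that most reduced the difference. Leaving it out therefore enlarges the difference by construction and gives it no support.

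**Figure D3:**
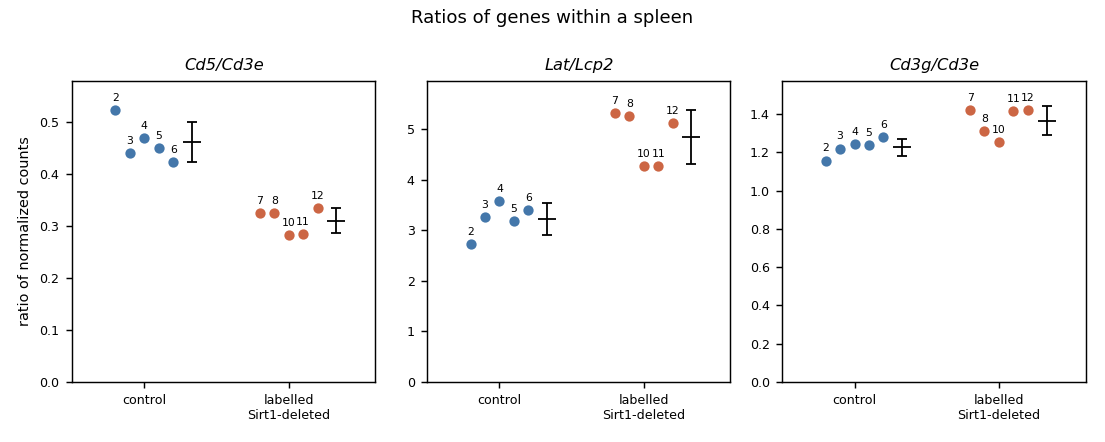
Ratios of normalized counts within each spleen for the 3 gene pairs that passed, on linear axes from 0, with replicate numbers beside the points and the mean and SD of 5 samples in black. The Cd5 to Cd3e and Lat to Lcp2 ratios do not overlap between the groups, and the Cd3g to Cd3e ratio overlaps in labelled Sirt1-deleted replicate 10.

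Levels of different genes were set side by side only per kilobase of the longest annotated coding transcript, since longer transcripts give more counts. This scale depends on which transcripts were present, which these files do not tell. In controls the order was Cd3g (14692 ± 960 normalized counts per kb, SD, n = 5), Lat (14622 ± 1171), Lck (13083 ± 612), Cd3e (8371 ± 330), Cd3d (7975 ± 506), Zap70 (3360 ± 225), Cd247 (2117 ± 91.7), Cd5 (1882 ± 110) and Lcp2 (1537 ± 79.4). The ranges of Cd3g, Lat and Lck overlapped one another, as did those of Cd3e and Cd3d and those of Cd247 and Cd5. The order depends on the transcript taken. Per kb of the shortest annotated coding transcript, Lck came first in controls (77682), followed by Cd3d (45088), Cd3g (36481), Lat (32304), Zap70 (16616), Cd3e (8371), Cd5 (6818), Cd247 (4753) and Lcp2 (2536). These shortest transcripts were only 368 bases for Lck, 286 for Cd3d, 412 for Cd3g and 454 for Zap70. Cd3e has a single coding transcript of 1462 bases. This second order therefore largely reflects annotated length and is not a second estimate of the levels. With the deletion label, per kb of the longest transcript, Lat came first (18613 ± 1848 per kb), its range overlapping that of Cd3g (15929 ± 1660 per kb). Cd5 came last there (1233 ± 99.8 per kb), its range overlapping that of Lcp2 (1303 ± 46.1 per kb). Per kb of the shortest transcript Lck (85308) and not Lat (41122) came first there, and Lcp2 (2149) and not Cd5 (4467) came last.

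Within groups, the likeness of patterns was described by Pearson's r of log2 values centred on each group's mean, over the 10 samples and 10751 genes with a mean of at least 100. The points share their libraries. The genes most like Cd3e were Cdc5l (r = 0.976), Ube2g1 (0.968) and Dpf2 (0.968). Those most like Lck were Fam193b (r = 0.979), Rgs14 (0.971) and Hltf (0.967). Those most like Cd5 were Aldh9a1 (r = 0.963) and Ptgfrn (0.960). Among the 9 genes, Lat ranked 57 of 10751 in likeness to Lck (r = 0.922) and Cd3g ranked 319 in likeness to Cd3e (r = 0.887), while Cd3d ranked 5989 in likeness to Cd3e (r = 0.0271). Each r pools the 2 groups and need not hold in both. For Lck and Cd3e it was -0.641. In the labelled Sirt1-deleted group, replicate 10 had the highest Cd3e (14317) and the lowest Lck (28695). Controls did not show this opposition: control 3 had the highest Lck (30529) and control 2 the lowest (26751), and Cd3e was also higher in control 3 (12583 against 11855).

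The other genes of the pathway numbered 59 in 6 lists by role. Of 58 that passed the filter, 6 were called higher and 25 lower (limma adjusted p under 0.05), beside 16.8% higher and 19.4% lower among all tested genes. The median log2 difference was -0.15, beside -0.00014 over all tested genes. The lists were written with earlier results of these samples known, so their counts describe and do not test. Genes of these lists named below although they did not pass, and Vav1, Egr2 and Nr4a3, were chosen after their values were seen. Without labelled Sirt1-deleted replicate 10 the number called higher was 10, and without 10 and 11 together it was 12, while the number called lower stayed between 22 and 26 in every fit run.

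Among receptor chains and their partners, 3 of 6 tested genes were called higher, beside 16.8% of all tested genes. Trbc2, a constant segment of the beta chain, measured 37759 ± 3456 against 28854 ± 2212 in controls (SD, n = 5 each) and rose by 0.39 on the log2 scale (limma adjusted p = 0.00199). The other constant segments did not pass. Trbc1 had a log2 difference of 0.14 (limma adjusted p = 0.142), which passed without labelled Sirt1-deleted replicate 10 (0.19, limma adjusted p = 0.0333), without 10 and 11 together (0.24, limma adjusted p = 0.00352), with sample weights (0.16, limma adjusted p = 0.0398) and after rescaling to T lineage markers (0.18, limma adjusted p = 0.0495). Replicates 10 and 11 held the lowest Trbc1 values of their group, so the difference without them is larger by construction. Trac, the alpha chain segment, had a log2 difference of -0.09 (limma adjusted p = 0.356). Trbc1 and Trbc2 are near-identical in sequence, so reads can be shared between them and both values are uncertain. Trat1, which encodes a receptor-associated adaptor, measured 1049 ± 172 against 762 ± 120 in controls and rose by 0.46 on the log2 scale (limma adjusted p = 0.0109). Its groups overlapped, with 906 in replicate 12 and 938 in control 3, and the exact rank-sum test did not call it (adjusted p = 0.0512). Fcer1g, which encodes a signalling chain that can replace the zeta chain and is used by myeloid cells, measured 462 ± 173 against 137 ± 5.69 in controls and rose by 1.66 on the log2 scale (limma adjusted p = 4.46e-04). Its labelled Sirt1-deleted values of 556, 684, 258, 325 and 489 in replicates 7, 8, 10, 11 and 12 moved with the summed neutrophil markers, which were highest in replicate 8 and lowest in replicate 10.

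Ptcra, which encodes the alpha chain of the pre-receptor of thymocytes, is singled out after its values were seen. It measured 278, 284, 1171, 1157 and 351 in labelled Sirt1-deleted replicates 7, 8, 10, 11 and 12, and 600, 624, 488, 576 and 668 in controls 2 to 6. Replicates 10 and 11 were above every control and the other 3 below every control, so the group was split around the controls, and the difference did not pass (log2 difference -0.18, SE 0.39). It was called lower in only 1 of the 12 alternative fits. Replicates 10 and 11 held the highest Ptcra values of their group, so leaving them out enlarges the fall by construction and gives it no support.

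Among 6 coreceptor and adhesion genes, 3 were called lower, beside 19.4% of all tested genes. Cd28, the costimulatory receptor, fell by 0.53 on the log2 scale (limma adjusted p = 7.84e-05), with 5605 ± 185 against 8077 ± 505 in controls. Cd8b1, a chain of the CD8 coreceptor, fell by 0.47 on that scale (limma adjusted p = 5.81e-04), and Cd6, a relative of Cd5 in the same receptor family, fell by 0.34 (limma adjusted p = 6.67e-04). Cd4 and Cd8a had log2 differences of -0.17 and -0.27 (limma adjusted p = 0.227 and 0.164). In the 3 called genes all 5 labelled Sirt1-deleted samples were below every control, as in 12.9% of all tested genes.

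The kinase genes Fyn, Txk and Tec did not pass. Syk, the relative of ZAP70 used by B and myeloid cells, measured 540 ± 90.7 against 393 ± 26.2 in controls and rose by 0.44 on the log2 scale (limma adjusted p = 0.00716). B cell markers had 0 of 8 tested genes called by limma (2 at an unadjusted p under 0.05), with summed levels of 502 to 1073 against 506 to 960 in controls. The part of B and myeloid cells in the Syk difference was not tested. Ptprc encodes CD45, the phosphatase that keeps LCK active, and measured 29013 ± 2121 against 37926 ± 1685 in controls (log2 difference -0.39, limma adjusted p = 6.93e-04), with no overlap between groups.

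Of 15 further adaptors and effectors, 9 were called lower and 1, Vav1, higher. Over all tested genes the shares were 19.4% lower and 16.8% higher. The largest falls were in Sh2d2a, an adaptor that binds LCK (-0.49, limma adjusted p = 0.00177), Themis, a thymocyte signalling protein (-0.49, limma adjusted p = 1.01e-04), Rasgrp1, the RAS activator (-0.46, limma adjusted p = 0.00209), Plcg1, the phospholipase recruited to LAT (-0.37, limma adjusted p = 0.00126), and Grap2, which links LAT to SLP-76 (-0.34, limma adjusted p = 0.00489). All these are log2 differences. Grap2 and Lcp2 were thus lower while Lat was higher. Among the genes not passing were Grb2 (-0.07) and Prkcq (-0.10). Vav1 had a log2 difference of 0.33 (limma adjusted p = 0.0116), but it was not called by the exact rank-sum test, and the groups overlapped.

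Of 16 negative regulators, 5 were called lower and 1 higher, a share near the 36.1% called among all tested genes. Sla, an adaptor that lowers receptor levels, fell by 0.67 on the log2 scale (limma adjusted p = 4.13e-04). Ubash3a, a phosphatase-like suppressor of ZAP70 signalling, fell by 0.46 (limma adjusted p = 6.21e-04), the ubiquitin ligase gene Cblb fell by 0.40 (limma adjusted p = 0.00140) and Pag1, which anchors the LCK inhibitor CSK, fell by 0.29 (limma adjusted p = 0.00271). Ptpn22, a phosphatase acting on LCK and ZAP70, rose by 0.48 (limma adjusted p = 0.00496). Csk had a log2 difference of -0.10 (limma adjusted p = 0.141). The number called higher in this list was 4 without labelled Sirt1-deleted replicate 10.

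Genes known to be induced after receptor engagement showed the lowest median among the lists, at -0.70, with 7 of 9 called lower. Among all tested genes 19.4% were called lower. The 7 include Egr2 (means of 22.1 against 38.5 in controls) and Nr4a3 (37.4 against 65.4, with overlapping groups), both low in counts. Egr3, a transcription factor gene induced by calcium signalling, fell by 1.05 on the log2 scale (limma adjusted p = 4.77e-04), with 339 ± 70.3 normalized counts against 694 ± 86.6 in controls. Nr4a1 fell by 0.70 (limma adjusted p = 3.87e-04), Egr1 fell by 0.61 (limma adjusted p = 7.66e-04) and Irf4 fell by 0.59 (limma adjusted p = 0.00399). In Egr3, Nr4a1, Egr1 and Irf4 the groups did not overlap, as in 12.9% of all tested genes in that direction. Il2ra fell by 0.73 (limma adjusted p = 0.0415), but its labelled Sirt1-deleted values were split, at 170, 212 and 186 in replicates 7, 8 and 12 and 424 and 439 in replicates 10 and 11, against 347 to 495 in controls. Its call was lost without any 1 of labelled Sirt1-deleted replicates 7, 8 or 12 or of control replicates 2, 3, 5 or 6, with log2 differences of -0.57 to -0.74. It was also lost under upper-quartile rescaling (-0.67), T lineage rescaling (-0.68), no intensity trend and the exact rank-sum test, with adjusted p of 0.0527 to 0.184. Without replicates 10 and 11 the log2 difference was -1.20 (limma adjusted p = 7.79e-05). These were the highest values of their group, so leaving them out widens the gap by construction. Cd69 had a log2 difference of 0.06 (limma adjusted p = 0.725).

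**Figure D4:**
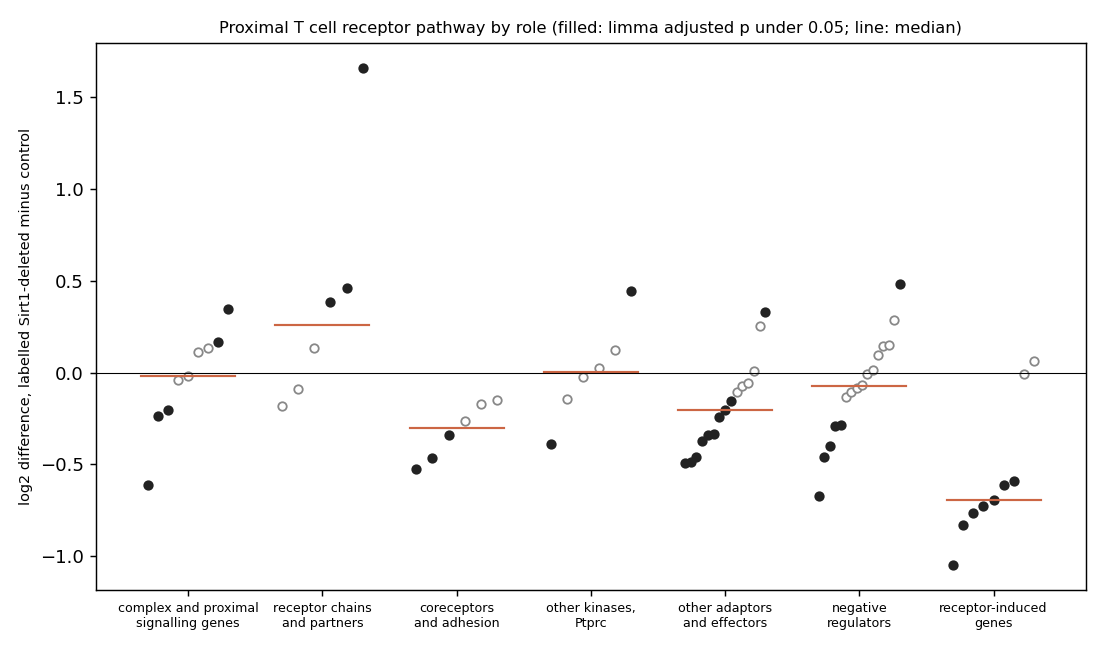
Log2 differences, labelled Sirt1-deleted minus control, of the 9 genes and of the other pathway genes by role, 1 point per tested gene, with the median of each list as a line. Filled points passed a limma adjusted p of 0.05: receptor-induced genes have 7 filled points, all below 0, and the 9 genes have 2 above and 3 below.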

How the data were processed

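The deposited table, which its authors named as DESeq normalized counts, holds a normalized signal per gene in 1 column per sample, with values that are not whole numbers. The submitters' processing notes name kallisto 0.44.0, DESeq and mm10, and annotation, settings and filters are not given in the sources used here. Groups follow the genotype label (5 labelled Sirt1-deleted samples, 5 controls). Values were analysed as log2(value + 1) for the 15276 genes with a mean of at least 10, which understates changes of low genes. Differences were fitted over the whole table with limma 3.58.1 in R 4.3.3 (group as the only term, intensity trend) with Benjamini-Hochberg adjustment over all tested genes at 0.05, and the script was tested on simulated data. Ratios were compared by exact permutation tests. Members and gene lists were chosen with earlier results of these data known. Genes were named by rule: the 9 members, Sirt1, Trac, Trbc1, Trbc2, up to 5 called genes per list with a mean of at least 100, and marker genes that define a list or have its highest mean. Depth in reads is unknown, so no counting intervals are given. Alternatives were other pseudocounts, filters, scalings and tests, and leaving out samples. The scaling to T lineage markers divided each sample by the geometric mean of 10 marker genes. Of these 10, 5 were themselves called between the groups, Cd28 among them, so this scaling is not a neutral reference. A few named genes are not reported here.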

Additional observations from a re-analysis of the deposited data

Results flagged for a closer look

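The lowest and highest of 5 samples were examined in 84 sets, which were the genes named by rule and the 7 gene ratios in either group. In 10 sets an end sample stood so far off that its distance to the next value, as a share of the whole range, passed 0.71 (Dixon's critical value). Chance at 1 in 20 would give 4.2 such sets if they were independent. The sets share the same 10 libraries, and the ratios share genes with other sets. The 2 numbers therefore cannot show an excess over chance. Control replicate 2 accounted for 5 of them. It was the lowest control for Lat (15564 against 18257 to 19144 in the others, share 0.752), Fcer1g (127 against 139 to 141, share 0.822) and Egr1 (3759 against 4343 to 4546, share 0.742). It was the highest control for Cd5 (6202 against 5389 to 5557, share 0.792) and Sla (7786 against 6157 to 6385, share 0.860). Its Lat and Cd5 values lay farther from the labelled Sirt1-deleted group than those of any other control. Control replicate 4 was the lowest control for Lcp2 (5102 against 5618 to 5819, share 0.720) and control replicate 6 for Plcg1 (6077 against 6839 to 7088, share 0.754). In the labelled Sirt1-deleted group, replicate 12 had the lowest Ptprc (25344 against 29078 to 30554, share 0.717) and the lowest Pag1 (3274 against 3818 to 4020, share 0.729). There, replicate 8 had the highest Trat1 (1348 against 906 to 1010, share 0.764).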

How the results depend on the processing

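No paired analysis was possible because none of the numbers in the titles occurs in both groups. Cd3d, Lat, Lcp2 and Cd5 kept direction and call under all 12 alternatives and in each of 10 fits without 1 sample. Cd247 lost its call under upper-quartile rescaling (-0.14), quantile normalization (-0.16), no intensity trend (-0.20), the exact rank-sum test (-0.20), T lineage rescaling (-0.16) and without labelled Sirt1-deleted replicates 10 and 11 (-0.19), and ranged from -0.25 to -0.16 without 1 sample. Lck passed under upper-quartile rescaling (0.19), sample weights (0.15), T lineage rescaling (0.17) and without replicates 10 and 11 (0.21), and ranged from 0.11 to 0.17 without 1 sample. Cd3e changed sign under upper-quartile (0.020) and T lineage rescaling (0.0015) and ranged from -0.11 to 0.028 without 1 sample. Zap70 changed sign under upper-quartile rescaling (0.041), quantile normalization (0.040), sample weights (0.011) and T lineage rescaling (0.023) and ranged from -0.048 to 0.017. Trac changed sign without replicates 10 and 11 (0.011). The log2 difference of the ratio of Cd3g to Cd3e lost its call under quantile normalization (0.12) and ranged from 0.13 to 0.18 without 1 sample. Those of Cd3d to Cd3e (0.33) and Lck to Cd3e (0.37) passed without replicates 10 and 11. Without 1 sample they ranged from 0.13 to 0.28 and 0.085 to 0.27, Cd247 to Cd3e from -0.20 to -0.078 and Zap70 to Lck from -0.21 to -0.11. Of the 9 genes, 4 to 6 were called in every fit. Other pathway genes called higher numbered 10 with sample weights and 12 without replicates 10 and 11, and 6 to 10 without 1 sample. Over all genes 5518 were called (46.4% higher), against 3659 (1691 higher, 1968 lower) with the rank-sum test. T lineage rescaling gave 1591 lower genes and 63.2% higher, and upper-quartile rescaling 58.2% higher. The causes of these changes were not tested. Replicates 10 and 11 held the lowest values of their group for Lck, Trbc1 and the ratios of Lck and Cd3d to Cd3e. They held the highest values of their group for Il2ra and Ptcra. Leaving them out therefore enlarges these differences by construction and gives them no support.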
